A study of Mus musculus with 472 samples.

Results

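Single cells of the anterior and of the posterior meninges of young mice were compared across genes. The comparison used the full-length libraries of the cells taken at 3 months of age, as wells of a nanowell chip in which 1 cell is dispensed, lysed and reverse transcribed. Wells were kept where 500 or more genes had a count and where the column held no constant added to every gene. These conditions left 15 anterior and 49 posterior wells, 64 of the 472 wells in the whole series. One posterior column was left out for a constant, and 20 anterior and 51 posterior wells had fewer than 500 genes. All cells came from male C57BL/6 mice dissected from over the anterior or the posterior cortex, and each age was a single pool of 6 mice. No well is tied to a mouse, so each region is 1 sample: the values below carry counting error only and no test between regions was possible. The reads had no molecular identifiers, so PCR copies count as separate reads and the intervals are too narrow for that reason as well.

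The meninges are the membranes around the brain. Their inner layers hold fibroblasts and barrier-forming arachnoid cells, resident macrophages, and blood vessels made of endothelium wrapped by mural cells, which are the smooth muscle cells of arteries and the pericytes of capillaries. Pericytes are recognised by genes such as Rgs5, a regulator of G-protein signalling, and Vtn, the adhesive glycoprotein vitronectin, while arachnoid cells are known for Ptgds, the prostaglandin D2 synthase they secrete into cerebrospinal fluid.

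The regions were uneven in some pericyte genes. Rgs5 was counted in 4 of 15 anterior wells and 3 of 49 posterior wells, at 353.9 and 7.18 CPM (each count divided by all counts summed over the region, scaled to the same total for both). Vtn was counted in 4 and 3 wells, at 189.1 and 2.76 CPM. In the other direction Ptgds was counted in 1 anterior and 13 posterior wells, at 1.73 and 181.8 CPM. In a sum over wells, fewer cells of a type and less RNA per cell cannot be told apart, so each summed value is followed by its wells.

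The promoters of pericyte genes are shown first because Rgs5 and Vtn were counted in the same 4 anterior wells, 3 of which also held Abcc9. RefSeq (GRCm38.p6) gave a start site for 6 of the 8 pericyte markers, and the 200 bases from 250 to 51 before it are printed 5′ to 3′ for Rgs5 (chr1:169655251-169655450, plus strand), Vtn (chr11:78498870-78499069, plus strand) and Abcc9 (chr6:142702325-142702524, minus strand), a subunit of the ATP-sensitive potassium channel. Capitals mark matches to TGGGAA, the core of RBPJ sites through which Notch acts, to GGAATG, the core of TEAD sites, and to the TATA box TATAAA, each searched on both strands.
Rgs5: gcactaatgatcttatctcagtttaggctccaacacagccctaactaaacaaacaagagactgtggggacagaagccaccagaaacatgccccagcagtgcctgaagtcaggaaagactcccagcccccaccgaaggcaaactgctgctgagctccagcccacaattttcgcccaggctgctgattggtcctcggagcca
Vtn: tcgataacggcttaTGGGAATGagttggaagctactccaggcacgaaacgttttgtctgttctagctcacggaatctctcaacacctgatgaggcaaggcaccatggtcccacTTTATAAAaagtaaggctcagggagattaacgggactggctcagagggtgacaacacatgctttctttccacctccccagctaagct
Abcc9: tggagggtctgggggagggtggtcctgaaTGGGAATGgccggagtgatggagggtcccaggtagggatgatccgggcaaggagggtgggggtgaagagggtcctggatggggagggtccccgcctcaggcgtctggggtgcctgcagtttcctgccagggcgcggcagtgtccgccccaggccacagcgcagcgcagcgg
Vtn and Abcc9 both held TGGGAATG, in which the RBPJ and TEAD cores overlap, and the Rgs5, Kcnj8, Cspg4 and Notch3 windows held none of the 3 motifs. The TATAAA match of Vtn was read on both strands of TTTATAAA, where the matches overlap. It lies in a window that ends 51 bases before the start site, and whether it works as a TATA box was not tested. Of 32851 promoter windows of the same length, 17.9% held TGGGAA, 10.7% held GGAATG, 9.14% held TATAAA and 1.09% held TGGGAATG. The joined motif was looked at after its letters had been seen in these windows, and a match is a description of the letters only.

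The wells differed far more in depth than the regions did. Anterior wells held 4396 to 199661 counts (median 14015) and posterior wells 1826 to 246435 (median 15755), for totals of 576462 and 1809698. A few wells therefore weigh heavily in the sums: 2 anterior wells over 100000 counts held 65.1% of the anterior counts, and 6 such posterior wells held 52.4% of the posterior counts. Genes with a count ran from 531 to 4114 per anterior well (median 825) and from 502 to 6249 per posterior well (median 1224). Shares of wells with a count are to be read beside this difference. By their titles the regions lay in separate areas of the chip with no position in common, so region and chip area cannot be told apart.

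Most counts fell on 13 predicted genes that match satellite repeats, 64.4% of the anterior and 66.2% of the posterior sum. Across wells this share ran from 4.94% to 82.5% (median 52.8%) in the anterior and from 1.1% to 91.4% (median 50.8%) in the posterior, so the ranges overlap throughout. The first 120 coding bases of Gm10800 (chr2:98666547-98667301, minus strand), Gm11168 (chr9:3003346-3005194, plus strand) and Gm21738 (chr14:19415857-19418930, minus strand), from GENCODE M21 on GRCm38, are shown because they are nearly the same sequence, with capitals at bases that differ from Gm10800.
Gm10800: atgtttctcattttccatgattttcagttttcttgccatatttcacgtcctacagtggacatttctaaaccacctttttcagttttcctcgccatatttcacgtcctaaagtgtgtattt
Gm11168: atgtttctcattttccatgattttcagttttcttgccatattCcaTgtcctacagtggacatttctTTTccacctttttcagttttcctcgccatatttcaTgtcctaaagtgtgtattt
Gm21738: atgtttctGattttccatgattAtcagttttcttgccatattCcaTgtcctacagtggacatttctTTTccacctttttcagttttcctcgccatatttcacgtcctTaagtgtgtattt
Gm11168 differed from Gm10800 at 6 of these 120 bases and Gm21738 at 8. Of the 30-base words in the Gm11168 transcript, 93.2% also occur in another gene of the group. This share was 42.6% for Gm10800 and 44.6% for Gm21738, and it ran from 37.1% (Gm10801) to 94.5% (Gm10720) over the group. Gm10717 differed from Gm10800 at 43 of the 120 bases, compared place by place without gaps. Most of these follow an extra TTT in Gm10717 that shifts the later bases, so 43 overstates the difference. Its share of words found in another gene of the group was 67.2%.

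**Figure D1:**
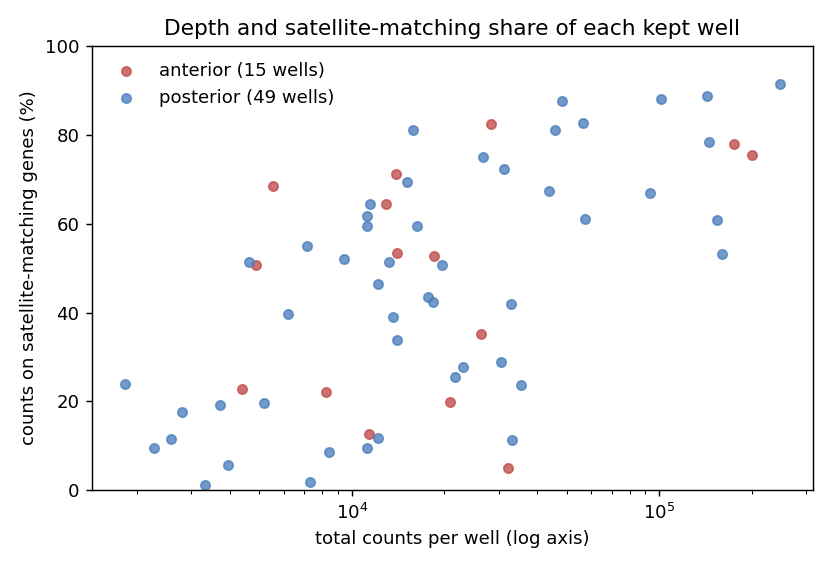
Total counts of each kept well (log axis) against the percent of its counts on the 13 satellite-matching genes, for 15 anterior and 49 posterior wells. Both regions span nearly the whole range of the share, with medians of 52.8% and 50.8%.

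Across all genes, a 2-fold difference between the summed regions was common. Of 12485 genes at 10 CPM or more in either region, 4497 (36%) reached a 2-fold excess in the anterior sum and 5003 (40.1%) in the posterior sum, on the scale of log2 (CPM + 1). Their median log2 ratio was -0.01. In 73.1% of the genes past 2-fold the higher region owed over 50% of its counts to a single well. The split moved with the scaling: with TMM factors 3115 genes were higher and 7038 lower, with median-of-ratios factors 3396 and 6942, with each well weighted equally 3563 and 6158, and with totals that leave out satellite-matching and mitochondrial genes 5409 and 10617. The typical log2 ratio moved by -0.56 under TMM and -0.49 under median-of-ratios factors, so ratios are to be read against that uncertainty in the zero.

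Genes were therefore named by a rule that asks for several wells and for agreement between the summed and the per-well values. It was met by 51 of 1537 genes (3.32%) at 50 CPM or more in either region. Of these, 31 were higher in the anterior and 20 lower, and the 15 with the largest ratios each way are named. Rgs5 and Vtn, counted in 4 anterior wells each, fell short of the minimum of 5 wells. They are given as the 2 highest members of the pericyte list at 50 CPM or more.

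**Figure D2:**
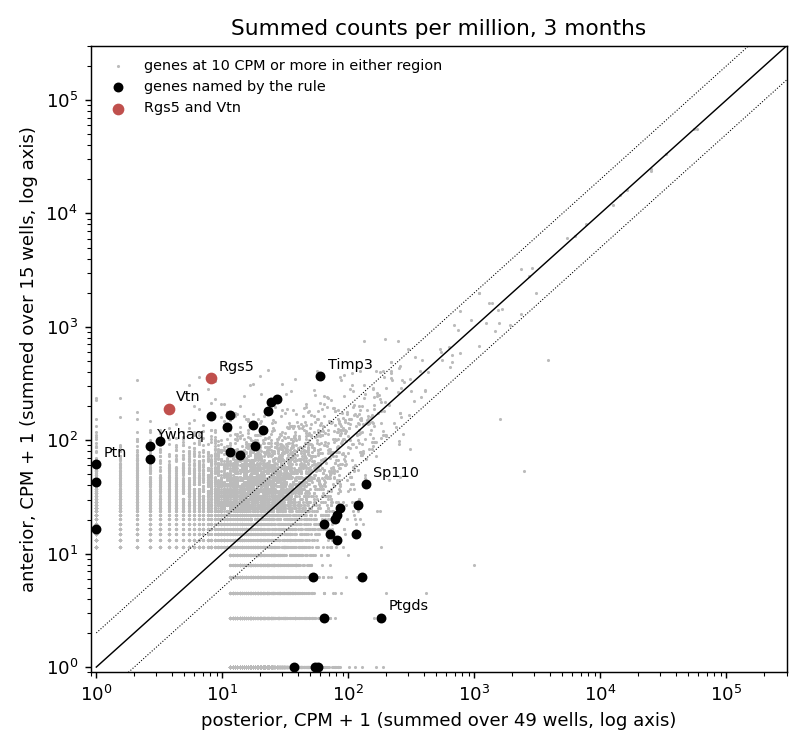
Summed anterior against summed posterior CPM, 1 added, on log axes; grey points are the 12485 genes, black points the genes named by the rule, red points Rgs5 and Vtn, and dotted lines mark 2-fold. Ptgds lies at 181.8 CPM in the posterior and 1.73 in the anterior, and Rgs5 at 7.18 and 353.9.

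The pericyte markers were carried by few wells. Rgs5 (chr1:169655501-169695813) had 21, 24, 83 and 76 counts in anterior wells 12, 17, 31 and 34, which is 1006, 5460, 5922 and 2887 CPM of those wells, and none in the other 11. In the posterior it had 13 counts in all, 7 of them in well 63, where 1826 counts in total made this 3834 CPM. The log2 ratio of the sums was 5.44 (95% counting interval 4.82 to 6.56). The anterior wells with Rgs5 thus stood at 1006 CPM or more, a level that 1 posterior well reached.

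Vtn (chr11:78499091-78502324) was counted in the same 4 anterior wells, with 44, 29, 7 and 29 counts, and in no other. Its log2 ratio was 5.66 (4.83 to 7.75). Ccl19, a chemokine that guides lymphocytes and dendritic cells, stood at 4838, 1820, 285.4 and 1785 CPM there, and these wells held 98.8% of its anterior counts. Its log2 ratio was 5.21 (4.56 to 6.39), at 6.63 CPM in the posterior sum. Ccl19 has near-identical copies, among them the pseudogene Ccl19-ps3 (4.33, from 163.1 against 7.18 CPM), and reads of these cannot be assigned to one copy with certainty.

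The channel genes of pericytes were sparser. Kcnj8, the pore subunit of the ATP-sensitive potassium channel, had 5 and 18 counts in anterior wells 12 and 17 and 5 in posterior well 63, and Abcc9 had 4, 1 and 12 in anterior wells 12, 17 and 31. Abcc9 was also counted in 1 further anterior well. Both genes, named after their values were seen, were higher in the anterior sum (log2 ratios 2.78 and 2.08). The other 4 markers did not reach a 2-fold excess in the anterior. Pdgfrb, the PDGF receptor of mural cells, was counted in 2 anterior and 3 posterior wells, at 15.6 and 10.5 CPM (log2 ratio 0.53, -0.75 to 1.79). Higd1b, a mitochondrial protein of pericytes, was counted in 1 anterior and 3 posterior wells (log2 ratio 0.86), and Notch3, the mural cell Notch receptor, in 2 and 10 (0.49). Cspg4, the NG2 proteoglycan, had no anterior count and 17 posterior counts, under the 10 CPM minimum.

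As a list, the pericyte markers gave 7 measured members of 8. The anterior sum exceeded the posterior 2-fold for 4 of them and fell short 2-fold for 0, beside 36% and 40.1% of all measured genes. Their median log2 ratio was 2.08. Wells with 3 or more of the markers numbered 4 of 15 in the anterior (26.7%, exact interval 7.79% to 55.1%) and 3 of 49 in the posterior (6.12%, 1.3% to 16.9%), and these intervals overlap. With each well thinned to 4500 counts, which left out 1 anterior and 7 posterior wells, they numbered 3 and 0. Anterior well 17 (4396 counts) and posterior well 63 (1826 counts), both with 3 or more markers, were among those left out for depth. Thinning therefore says nothing about these wells. Of the posterior wells, number 30 also held 97% of the posterior haemoglobin counts and number 85 was among the deepest, at 159513 counts. Rgs5 was counted in 0 of 2 anterior and 0 of 10 posterior macrophage-like wells, at median depths of 18530 and 12191 counts, and in 1 of 20 anterior and 2 of 51 posterior wells under 500 genes. Without the wells with 3 or more pericyte markers in both regions, chosen after seeing the data, the list median was -1.98 and the Rgs5 ratio -2.03. The removed wells held 100% of the anterior Rgs5, Vtn, Kcnj8, Pdgfrb and Higd1b counts, so these lower values were fixed by the choice of wells.

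**Figure D3:**
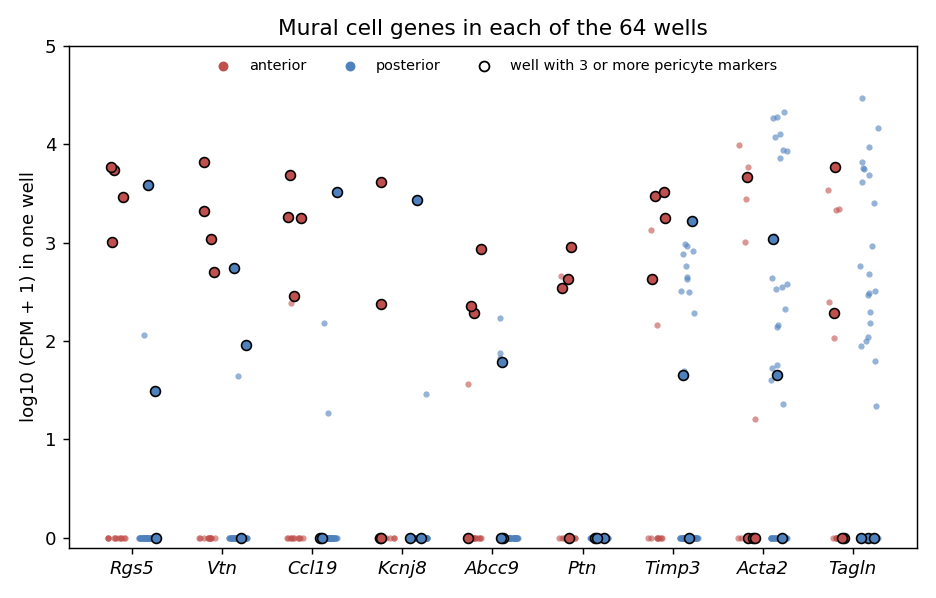
Level of 9 mural cell genes in each of the 64 wells, as log10 (CPM + 1), anterior in red and posterior in blue; black rings mark wells with 3 or more pericyte markers. The anterior counts of Rgs5 and Vtn lie in the 4 ringed wells, while Acta2 and Tagln are spread over many wells of both regions.

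Among genes of contractile smooth muscle, Acta2 and Tagln were not divided in this way. Acta2, smooth muscle actin, was counted in 6 anterior wells (15 to 9838 CPM where counted) and 22 posterior wells (21.8 to 21505 CPM), at 505 and 386.3 CPM in the sums (log2 ratio 0.39, 0.18 to 0.59). Tagln, the actin-binding transgelin, was counted in 7 and 22 wells, at 447.6 and 258.1 CPM (0.79, 0.57 to 1.02). Of 6 smooth muscle markers measured, 1 was at least 2-fold higher and 1 lower, beside 36% and 40.1% of all measured genes. The 4 anterior pericyte-marker wells held 93.3% of the anterior Des counts and 75.8% of those of Myl9. They held 49.6% for Tagln, 41.2% for Myh11, 33.3% for Acta2 and 0% for Cnn1, beside 11.4% of all anterior counts. Anterior well 12 held Acta2 (4646 CPM) and Tagln (5892 CPM) beside its pericyte genes, and anterior wells 17 and 31 held neither. Myh11, smooth muscle myosin heavy chain, was counted in all 4 of the anterior pericyte-marker wells, with 4, 1, 8 and 1 counts in wells 12, 17, 31 and 34, and Tagln had 5 counts in well 34.

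Among the named genes higher in the anterior, those of the vessel wall and its matrix come first. Timp3, an inhibitor of matrix metalloproteinases (chr10:86300372-86349506, overlapping Syn3 on the other strand), was counted in 7 of 15 anterior and 13 of 49 posterior wells. Where counted it ran from 143.4 to 3267 CPM (median 1772) in the anterior and from 43.9 to 1643 (median 447.7) in the posterior, so the ranges overlap. Its sums were 367.8 and 59.1 CPM (log2 ratio 2.6, 2.3 to 3.0), and 67% of its anterior counts lay in the 4 pericyte-marker wells, which held 11.4% of all anterior counts. Without the pericyte-marker wells its ratio was 1.2.

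Ednra, the endothelin receptor of mural cells, was counted in 5 and 2 wells (67.6 against 1.658 CPM, log2 ratio 4.69, 3.70 to 7.69), with 20.5% of its anterior counts in the pericyte-marker wells. Prss23, a secreted serine protease, was counted in 5 and 2 wells (97.1 against 2.2 CPM, 4.93). Ptn, the growth factor pleiotrophin, was counted in 4 anterior wells and no posterior well, 35 counts against 0, which makes it at least 36.6-fold higher (3 counts over the group as the floor). Mmp14, a membrane-bound matrix metalloproteinase, and Tfpi, the tissue factor pathway inhibitor, were likewise counted in 4 anterior wells and in 0 posterior wells, which allows a share of up to 6.12% of posterior wells with 3 wells as the floor and up to 7.25% by the exact interval. They were at least 25.1-fold and 9.42-fold higher, and 66.7% of the Mmp14 counts came from 1 well.

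The remaining named genes of this direction belong to signalling, the cytoskeleton and the secretory path. Ywhaq, a 14-3-3 adaptor protein, had the largest ratio of the 15 (5.07, 4.11 to 8.06), counted in 6 anterior wells at 25 to 862 CPM and in 3 posterior wells at 89.1 to 118.8 CPM. Rasgrp2, an exchange factor for Rap1 (2.96), Vasp, an actin regulator (2.3), and Sptan1, alpha spectrin (2.6), were each counted in 5 anterior wells. Selenok and Selenow, both selenoproteins, were counted in 8 and 7 anterior wells (3.11 and 3.86). Tcf12, a basic helix-loop-helix factor (3.17), Mtus1, a microtubule-associated protein (3.58), Usp32, a deubiquitinase (2.78), Kpna4, an importin (2.4), and Tmem50a (2.97) made up the rest.

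Of the 15 genes, 5 had 50% or more of their anterior counts in the 4 pericyte-marker wells, and 14 were still at least 2-fold higher without these wells. Ccl19-ps3 was the exception at -1.01. Kpna4 turned to -0.39 when each well was thinned to 4500 counts.

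Ptgds (chr2:25466709-25470046) had the lowest ratio of the 15 genes named by the rule as lower in the anterior. It had 1 count in 1 of 15 anterior wells, and was counted in 13 of 49 posterior wells, where it ran from 6.51 to 4009 CPM (median 445.3), a log2 ratio of -6.06 (-12.02 to -4.22). The other 14 anterior wells were at 0. After thinning it was counted in 1 anterior and 9 posterior wells. Of the posterior macrophage-like wells 2 of 10 held Ptgds, and of the posterior wells under 500 genes 6 of 51 did, at median depths of 12191 and 1246 counts.

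The other arachnoid markers were low in both regions. In the whole list of 10, Ptgds included, 6 were measured. Of these, 5 were 2-fold or more lower in the anterior and none was higher, beside 40.1% and 36% of all measured genes. The median was -4.10, or -2.08 with genes that had no anterior count set at their bound. Dpp4, a surface peptidase, was counted in 0 anterior and 6 posterior wells, Alcam, an adhesion molecule, in 0 and 7, and Nnat, neuronatin, in 0 and 5, all named after their values were seen. Wells with 3 or more arachnoid markers numbered 0 of 15 and 6 of 49, and 0 and 1 after thinning. Fibroblast markers divided evenly, 3 higher and 3 lower of 8 measured, with Lum at 0 in both regions, and wells with 3 or more of them numbered 2 and 1.

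Further genes lower in the anterior were counted in 13 to 23 posterior wells each. Vim, the intermediate filament vimentin, was counted in 3 anterior and 13 posterior wells (13.9 against 70.2 CPM, log2 ratio -2.26, -3.58 to -1.32), and Ahnak, a large scaffold protein, in 3 and 18 (-2.16). Atf3, a stress-induced transcription factor, was counted in 2 and 15 wells (13.9 against 113.8 CPM, -2.95, -4.27 to -2.03). Sp110 and Sp140, nuclear body proteins of immune cells that belong to a repeated gene family, were counted in 3 and 23 and in 1 and 15 wells (both -1.76).

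Son, a splicing factor (-4.37), Tln2, talin 2 (-3.08), Htt, huntingtin (-2.64), Atp2a2, the SERCA2 calcium pump (-1.97), Slc25a3, the mitochondrial phosphate carrier (-1.80), Wdr89 (-1.90) and Ahsa2, a co-chaperone (-4.55), followed. Wdr89 turned to 0.11 when wells with 250 or more genes were used. Speer4c, of a multigene family whose reads may be shared, and Catsperg1, a sperm channel subunit, were counted in 13 posterior wells each and in no anterior well, at least 10.8-fold and 10.2-fold lower. Kif1c, a kinesin motor, was also counted in 13 posterior wells alone, at least 6.90-fold lower. A count of 0 in 15 wells allows a share of up to 20% of anterior wells with 3 wells as the floor and up to 21.8% by the exact interval.

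**Figure D4:**
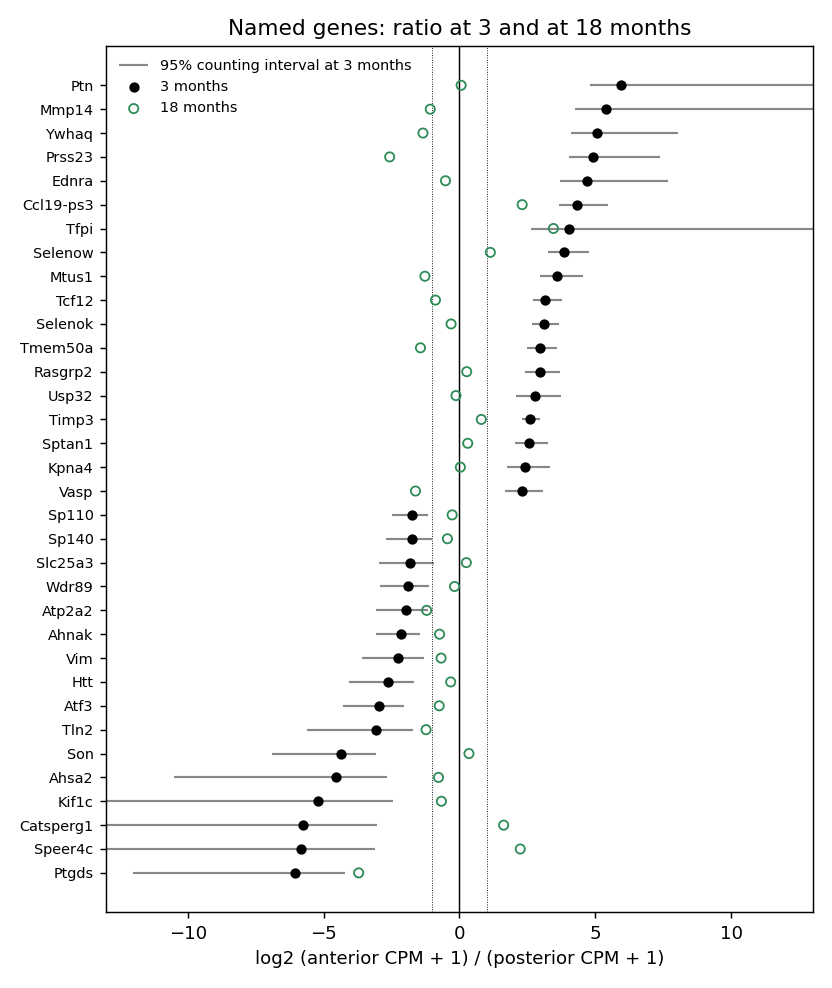
Log2 ratio of anterior to posterior CPM (1 added) of each named gene at 3 months with its 95% counting interval, which runs to the edge where one region had no count, and the ratio of the same gene at 18 months as an open circle. Ptgds is low in the anterior at both ages (-6.06 and -3.71), while Prss23 changes side (4.93 and -2.57).

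Immune markers were uneven in single genes. C1qc and C1qb, chains of complement C1q made by macrophages, were counted in 1 anterior well each and in 9 and 8 posterior wells (log2 ratios -5.88 and -3.98). Lyz2, lysozyme, was at 505 and 551 CPM (-0.13), with 95.2% of its anterior counts in 1 well. Of 12 macrophage markers measured, 6 were 2-fold or more lower in the anterior and 0 higher, beside 40.1% and 36% of all measured genes. Their median was -0.92, and macrophage-like wells made up 2 of 15 and 10 of 49. S100a8, a calcium-binding protein of neutrophils, was at 3.47 and 410.6 CPM (-6.52), in 1 and 6 wells, and Csf3r, the G-CSF receptor, was counted in 0 and 11 wells, named after its values were seen. Of 8 granulocyte and monocyte markers 2 were higher and 5 lower. Of 11 lymphocyte markers 3 reached the 10 CPM minimum (0 higher, 1 lower), and of 6 microglia markers 3 did (1 higher, 0 lower).

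Haemoglobin counts lay mostly in 1 posterior well. All 4 measured erythrocyte genes were 2-fold or more lower in the anterior, beside 40.1% of all measured genes. Hba-a1 had a log2 ratio of -2.93 (507 against 3863 CPM), yet it was counted in 7 of 15 anterior and 12 of 49 posterior wells. Posterior well 30 held 97% of the posterior haemoglobin counts, and without it the list median turned from -4.45 to 0.63.

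The next lists are read beside 36% higher and 40.1% lower of all measured genes. Endothelial markers gave 1 higher and 4 lower of 11 measured. Tek, the angiopoietin receptor, was at 64.2 and 7.18 CPM (2.99). Flt1, a VEGF receptor, was at 22.6 and 166.9 CPM (-2.83), with 78.8% of its posterior counts in 1 well. Markers of nervous tissue were few: 3 of 7 neuron, 5 of 7 astrocyte, 4 of 6 oligodendrocyte and 2 of 6 Schwann cell markers were measured, with 1, 2, 1 and 1 higher and 1, 2, 3 and 1 lower. Of 6 choroid plexus and ependyma markers 1 was measured: Clic6, named after its values were seen, had a log2 ratio of 2.3 in the sums, with all 20 anterior counts in 1 well against 4 posterior wells, and -1.16 with each well weighted equally.

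**Figure D5:**
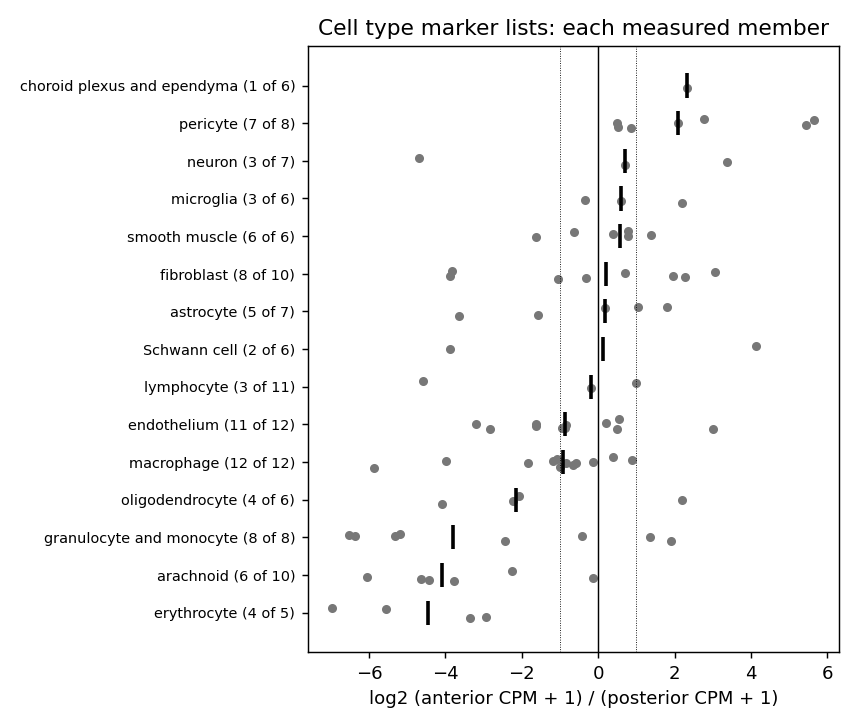
Log2 ratio of anterior to posterior CPM (1 added) for each measured member (grey) of the cell type marker lists, with the list median as a black bar and the number measured of all members in brackets. The pericyte median is 2.08 and the arachnoid median -4.10; most other lists scatter on both sides of 0.

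Clustering of the kept full-length wells of both ages gave smooth muscle-like, endothelium-like and macrophage-like clusters and no pericyte cluster. An unnamed cluster with the arachnoid markers Ptgds and Prg4 raised held 3 of 15 anterior and 3 of 49 posterior wells, and at Leiden resolution 2 an arachnoid-like cluster held 1 and 0, while the summed arachnoid markers were lower in the anterior. Smooth muscle-like wells made up 5 of 15 anterior wells (33.3%, exact interval 11.8% to 61.6%) and 9 of 49 posterior wells (18.4%, 8.76% to 32%). Endothelium-like wells numbered 1 and 2, and 7 and 28 wells remained unnamed. The intervals overlap for each class. Of the anterior smooth muscle-like wells 3 of 5 held Rgs5 and of the posterior ones 0 of 9 did.

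Lists of meningeal patterning and signalling are read beside the 36% higher and 40.1% lower of all measured genes. Of 16 measured patterning transcription factors, which carry regional identity, 10 exceeded 2-fold in the anterior and 3 in the posterior (median 1.5), but the median was -0.55 with each well weighted equally. Foxc1, required for meningeal development, was at 59 and 5.53 CPM (3.20) with 94.1% of its anterior counts in 1 well, while Tbx15, a T-box factor, was counted in 3 and 6 wells (2.5) and Nr2f2, a nuclear receptor of veins and mesenchyme, in 4 and 6 (1.95). Of 5 measured retinoic acid genes 3 were higher and 1 lower, of 14 WNT genes 4 and 9, of 14 BMP and TGF-beta genes 5 and 7, of 15 chemokine genes 3 and 8, and of 6 IGF genes 3 and 2.

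Secreted and matrix genes included large single ratios. Clu, the chaperone clusterin, was counted in 0 of 15 and 10 of 49 wells (0 and 163.6 CPM), whereas Apoe, the lipid carrier, was at 642 and 534 CPM in 8 and 20 wells (0.27). Of 15 measured trophic and secreted genes 5 were higher and 8 lower, beside 36% and 40.1% of all measured genes. Of 25 matrix and basement membrane genes 6 were higher and 11 lower: Mgp, matrix Gla protein, was counted in 4 and 22 wells (83.3 against 310 CPM, -1.88), and Sparc, a collagen-binding glycoprotein, in 4 and 12 (407.7 against 55.8 CPM, 2.85), with 82.1% of its anterior counts in 1 well.

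General programmes were counted in the same way, beside 36% higher and 40.1% lower over all measured genes. Of 26 solute transport genes 7 were higher and 10 lower, of 16 immediate early genes 2 and 6, of 16 heat shock genes 2 and 4, of 17 glycolysis and hypoxia genes 3 and 7, of 31 nuclear oxidative phosphorylation genes 6 and 9, of 17 antigen presentation and interferon genes 7 and 5, of 22 cytoskeleton genes 5 and 5, and of 11 cell cycle genes 3 and 6. Among quality lists, 13 mitochondrially encoded genes gave 1 higher and 1 lower, the 13 satellite-matching genes 0 and 0, and 4 nuclear-retained RNAs 1 and 2.

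The wells titled 18 months, 57 anterior and 67 posterior after filtering, were compared over the named genes. Among them, 18 anterior and 30 posterior wells carry a conflicting age field of 3 months. Of 14 measured genes higher in the anterior at 3 months, 6 had the same sign, 2 were 2-fold the same way and 5 were 2-fold the other way; over the 850 genes that were 2-fold higher at 50 CPM or more and measured at both ages, 43.8% had the same sign. Of these 850 genes, 21.6% were 2-fold the same way and 25.8% the other way. Of 14 lower genes 11 had the same sign, beside 59.3% of the genes that were 2-fold lower. Among the 14, 3 were 2-fold the same way and 1 the other way, beside 27.1% and 13.6% of the genes that were 2-fold lower. Rgs5 was higher in the anterior sum at 18 months as well (133.2 against 5.605 CPM, 4.35), as were Vtn (1.81) and Ccl19 (3.58), and Ptgds was lower (-3.71). The other pericyte markers were split at 18 months. Notch3 (1.1325) and Kcnj8 (0.63) were higher in the anterior, and Abcc9 (-1.1891), Pdgfrb (-0.96), Higd1b (-0.80) and Cspg4 (-0.27) were lower. In the 3-prime libraries of the 3-month cells, with 16 and 18 wells kept, 6 of 14 higher and 4 of 10 lower genes had the same sign, beside 45.5% and 67% of the genes that were 2-fold higher or lower at 50 CPM or more. Among those 14 genes, 5 were 2-fold the same way and 5 the other way, beside 30.5% and 40.5% of all such genes. Among the 10, 2 were 2-fold the same way and 2 the other way, beside 46.9% and 19.6%. In the 3-prime libraries Rgs5 was at a log2 ratio of 1.6 and Ptgds at -1.39. Of the other pericyte markers in these libraries, Notch3 (1.6281) and Pdgfrb (1.3428) were higher, and Higd1b (-2.6935) and Cspg4 (-0.37) were lower. Vtn, Kcnj8 and Abcc9 had no 3-prime count in either region.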

How the data were processed

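Per the labels, meningeal cells were dispensed as single cells on a nanowell chip and sequenced after a transposase-based library preparation. Reads were aligned with STAR 2.7.0a to mm10, per the submitters' processing notes. No source used here names the counting program, the strand setting or the gene annotation. The authors deposited 1 table of read counts per gene, with 39179 genes and 472 columns. In 11 columns the deposited values hold a constant of 1 to 16 added to every gene, so they were read as a score and left out. Gene symbols were found for 37607 IDs.

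Counts were summed over the wells of a region and divided by the total (CPM), and ratios are log2 with 1 CPM added. Ratio intervals are exact conditional binomial and shares exact Clopper-Pearson, at 95%, for counting error only. Titles gave age and region. Of the wells titled 18 months, 85 carry a 3-month age field. They were grouped as 18 months by title, and the age field was used only as an alternative grouping. A gene was named at 50 CPM or more in the higher region, counted in 25% and at least 5 of its wells, with no well above 50% of its counts, and with a 2-fold difference in both summed and mean per-well CPM and the same direction in the share of wells and within title numbers 1 and 2; genes counted in 25% and at least 4 wells of one region and in none of the other were named too, up to 5 each way, as were the 2 highest and 2 lowest members of each list. Mitochondrial, ribosomal and predicted genes were not named. Clusters used scanpy 1.11.5 (1000 variable genes, 15 components, 10 neighbours, Leiden resolution 1), named from 3 or more markers. Doublets were not called. Scaling factors came from edgeR 4.0.16 (TMM) and DESeq2 1.42.0 (size factors); no count model was fitted, since each region is 1 sample. The ratio and interval code was tested on simulated data. The members and gene lists were chosen with earlier results of these data known. Coordinates are from GENCODE M21 (GRCm38).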

Additional observations from a re-analysis of the deposited data

Results flagged for a closer look

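Named genes that were at least 2-fold one way at 3 months and at least 2-fold the other way at 18 months are given here. They are read beside all genes past 2-fold at 50 CPM or more at 3 months and measured at both ages. Of those higher in the anterior, 25.8% were 2-fold the other way at 18 months, and of those lower 13.6%. Each age is 1 pool, and the difference between ages was not tested. Ages follow the titles. Of the kept wells titled 18 months, 18 anterior and 30 posterior ones carry a 3-month age field. Ywhaq had a log2 ratio of 5.07 at 3 months and -1.34 at 18 months (43.2 CPM in the anterior and 110.8 in the posterior). Prss23 had 4.93 and -2.57. Mtus1 had 3.58 and -1.27. Tmem50a had 2.97 and -1.43, and Vasp 2.3 and -1.61. Mmp14, counted in anterior wells alone at 3 months, was at -1.07 at 18 months. Speer4c and Catsperg1, counted in posterior wells alone at 3 months, were at 2.241 and 1.6302 at 18 months.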

How the results depend on the processing

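The 2-fold counts stayed within 1.5 times of 4497 higher and 5003 lower (36% and 40.1% of measured genes) under all alternatives except these: 10617 lower (53.4%) with totals that leave out satellite-matching and mitochondrial genes, 13815 lower (57.8%) with a 1 CPM minimum, and 1176 higher (59.1%) and 13.9% lower of 1989 genes with a 50 CPM minimum. The pericyte median of 2.08 was 1.4474 with those totals, 0.87 under TMM, 0.95 under median-of-ratios factors, 1.3308 and 1.3803 with wells of 250 and 1000 or more genes, 1.3096 with 10 CPM added, 1.4686 and 5.55 with a 1 and a 50 CPM minimum, and -1.98 without the pericyte-marker wells, chosen after seeing the data. This last value was fixed by choosing the wells on the same markers. The arachnoid median of -4.10 was -4.88 with wells weighted equally, -4.94 with those totals, -4.80 with title number 1 only, -4.79 without wells over 100000 counts, -6.82 and -1.39 with 0.1 and 10 CPM added, and -3.38 and -6.06 with a 1 and a 50 CPM minimum. The macrophage median of -0.92 was -1.52 under TMM, -1.57 with 1000 or more genes and -3.53 with title number 2 only.

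Medians of short lists changed sign. Patterning factors were at -0.55 with wells weighted equally, -0.069 with those totals, -1.07 with a 1 CPM minimum and -0.70 after thinning. Retinoic acid genes were at -2.61 with those totals, -0.72 under TMM, -0.65 under median-of-ratios factors, -2.14 with title number 1, -2.57 without deep wells, -0.0814 by the age field, -0.16 without macrophage-like and -0.12 without endothelium-like wells, -2.17 with a 1 CPM minimum and -4.08 after thinning. The choroid plexus gene was at -0.99 under TMM, -0.94 under median-of-ratios factors, -0.19 with 1000 or more genes, -0.53 without macrophage-like and -0.56 without endothelium-like wells, -5.03 after thinning and -0.58 without the haemoglobin well. With title number 1 the WNT median was 2.72 and the chemokine median 0.70, and without macrophage-like wells the chemokine median was 0.36. With a 50 CPM minimum oligodendrocyte markers were at 2.1843, WNT genes at 1.527, trophic genes at 1.8013 and cell cycle genes at 2.6489; with wells weighted equally trophic genes were at 0.80 and cell cycle genes at 0.70. Erythrocyte genes were at 0.43 without the pericyte-marker wells, which include the haemoglobin well, and 0.63 without that well alone.

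Of 612 ratios of named genes under the alternatives, 479 stayed inside the counting interval of the reported ratio and 4 changed sign. The rest left the interval with the same sign, among them 24 of 34 by the age field and 14 of 34 each without deep wells and with 10 CPM added. The sign changed for Wdr89, at 0.11 with 250 or more genes, Catsperg1 at 0.15 by the age field, Kpna4 at -0.39 after thinning and Ccl19-ps3 at -1.01 without the pericyte-marker wells. The cause of these changes was not tested. Shares of the classes named at resolution 1 stayed inside their intervals at Leiden resolutions 0.5 and 2, and at 2 an arachnoid-like class appeared with 1 of 15 anterior and 0 of 49 posterior wells. Shares of wells with a count depended more on depth. With each well thinned to 4500 counts, 19 of 68 such shares of the named genes left their interval. No paired analysis was possible because each region is 1 pool and no test was made. With 3 counts as the floor, the sums cannot show levels under 5.20 CPM in the anterior and 1.658 CPM in the posterior.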
